A study of Mus musculus with 2 samples.

Results

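Acetylcholine handling and acetylcholine reception were followed across the cells of the ventral parafacial region through 10 genes out of 28692 in the gene table. The 10 were grouped by their function, with earlier results of these data known, and none of them was used to sort cells. They are 3 genes that make, load and retrieve acetylcholine (*Chat*, *Slc18a3* and *Slc5a7*), 3 further genes known from motor neurons (*Slc10a4*, *Isl1* and *Chodl*), and 4 acetylcholine receptor genes (*Chrna3*, *Chrna4*, *Chrnb2* and *Chrm2*). Single cells were collected from transverse brainstem slices of 10-day-old C57BL6/J mice and sequenced in 2 libraries, 1 per condition. The untreated library (batch 1) pooled 8 mice, 4 male and 4 female, and the other (batch 2) pooled 8 mice of the same age, strain and sexes that had been given 0.2 mg of 4OH-tamoxifen daily for 3 days. No mouse carried a transgene or Cre allele according to the labels, and animals cannot be separated within a pool. Condition, batch and library therefore cannot be told apart, no test between conditions was possible, and the values of both libraries are given side by side, untreated first unless stated.

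Acetylcholine is made from choline and acetyl coenzyme A by choline acetyltransferase (*Chat*), pumped into vesicles by the vesicular acetylcholine transporter (*Slc18a3*), released, broken down in the cleft, and recovered as choline by the high-affinity choline transporter (*Slc5a7*). *Slc18a3* lies inside the *Chat* gene, an arrangement known as the cholinergic gene locus. In the hindbrain this set of genes is best known from cranial motor neurons, whose identity depends on LIM homeodomain factors such as *Isl1*, and the ventral parafacial region lies directly beneath the facial motor nucleus. Released acetylcholine acts on nicotinic receptors, which are ion channels built of 5 subunits such as *Chrna3*, *Chrna4* and *Chrnb2*, and on muscarinic receptors, which couple to G proteins and of which *Chrm2* is an inhibitory type.

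All 10 genes are protein-coding, and their positions are given on the GRCm38 assembly with the GENCODE M21 annotation. *Chat* spans chromosome 14 from 32408203 to 32465989 on the minus strand, and *Slc18a3* lies from 32462438 to 32464850 on the same strand, wholly within the span of *Chat* and in its introns, since the annotated exons of the 2 genes share 0 bases. *Slc5a7* is on chromosome 17 from 54273590 to 54299034 (minus), *Slc10a4* on chromosome 5 from 73006883 to 73012955 (plus), *Isl1* on chromosome 13 from 116298281 to 116309689 (minus) and *Chodl* on chromosome 16 from 78930948 to 78951733 (plus). Among the receptors, *Chrna3* is on chromosome 9 from 55010111 to 55026562 (minus), *Chrna4* on chromosome 2 from 181018380 to 181043546 (minus), *Chrnb2* on chromosome 3 from 89746195 to 89764632 (minus) and *Chrm2* on chromosome 6 from 36388084 to 36528414 (plus). *Chrnb2* shares 1365 of its 8380 exon bases with *Adar*, which runs on the opposite strand, and *Chrm2* shares 142 of 6053 with the noncoding gene *9330158H04Rik*, also opposite. Cell Ranger, which made these counts, assigns reads by default to genes on the sense strand, and settings beyond its version are not given in the sources used here.

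The promoters of *Chat*, *Slc18a3* and *Slc5a7* are shown because these 3 genes were detected together in 1 class of cells while *Chat* and *Slc5a7* parted in another. Each is the RefSeq sequence of GRCm38.p6 from 250 bases before to 50 bases after the annotated start, written 5′ to 3′ on the strand of the gene (minus for all 3), with capitals marking each motif found among those searched. *Chat* is at chr14:32465860-32466159, *Slc18a3* at chr14:32464801-32465100 and *Slc5a7* at chr17:54298985-54299284.
Chat: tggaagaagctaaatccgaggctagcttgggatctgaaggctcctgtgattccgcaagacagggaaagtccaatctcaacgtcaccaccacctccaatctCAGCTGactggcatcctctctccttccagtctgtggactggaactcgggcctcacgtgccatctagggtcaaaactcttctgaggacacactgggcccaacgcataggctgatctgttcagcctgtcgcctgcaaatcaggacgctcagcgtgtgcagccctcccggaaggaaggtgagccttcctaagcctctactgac
Slc18a3: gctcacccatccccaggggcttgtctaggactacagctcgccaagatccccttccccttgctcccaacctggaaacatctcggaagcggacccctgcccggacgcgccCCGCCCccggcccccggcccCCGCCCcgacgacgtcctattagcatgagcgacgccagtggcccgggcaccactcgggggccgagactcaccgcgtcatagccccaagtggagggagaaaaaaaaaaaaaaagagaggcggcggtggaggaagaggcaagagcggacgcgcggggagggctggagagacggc
Slc5a7: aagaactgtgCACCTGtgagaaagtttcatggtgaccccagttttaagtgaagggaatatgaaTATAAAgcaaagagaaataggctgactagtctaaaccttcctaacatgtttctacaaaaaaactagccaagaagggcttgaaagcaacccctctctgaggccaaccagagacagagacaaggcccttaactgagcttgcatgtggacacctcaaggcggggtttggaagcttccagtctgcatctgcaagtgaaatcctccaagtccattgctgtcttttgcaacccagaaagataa
The RefSeq starts of *Chat* and *Slc18a3* are 1059 bases apart. The motifs were searched on both strands, and a match is only a match of letters. GGGCGG, the GC box, was found in 35.7% of 32851 promoters and in 6 of the 10 described here, including *Slc18a3*, where it reads on the opposite strand. CAGCTG and CACCTG, both E-boxes, were in 16.3% and 20.2% of all promoters, the first in *Chat*, *Isl1* and *Slc10a4* and the second in *Slc5a7*. TATAAA was in 13.6% of all promoters and, of the 10, in *Slc5a7*. TAATTA and TAATTG, core letters bound by many homeodomain factors, were in 5.29% and 8.0% of all promoters and in 0 of the 10 windows. The *Slc5a7* promoter was 44.7% G and C with 1 CG pair, the *Chat* promoter 55.7% with 10, and the *Slc18a3* promoter 67.0% with 27, against a median of 52.7% G and C over all promoters.

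Sequencing gave 18496942 unique molecular identifiers (UMIs, each standing for a captured transcript) over 3767 untreated barcodes and 34704167 over 10241 4OH-tamoxifen barcodes, at medians of 3455 and 2316 UMIs a barcode. After filtering, 3339 and 8558 cells remained. The libraries shared 40 barcode sequences, of which 0 untreated and 2 4OH-tamoxifen cells fell in the *Prph* class described next, and leaving out every such cell changed no call on the 10 genes. Cells were placed in 8 classes by UMIs of marker genes. Neurons were split into a *Prph* class of 47 and 183 cells (at least 5 UMIs of *Prph*, the intermediate filament peripherin), an *Nmb* class of 22 and 52 cells (the neuropeptide neuromedin B), a *Slc32a1* class of 86 and 303 cells (the vesicular transporter of GABA and glycine) and a *Slc17a6* class of 17 and 74 cells (a vesicular glutamate transporter). The glial classes were *Aqp4* (824 and 1771 cells, an astrocyte water channel), *Pdgfra* (316 and 631 cells, a receptor of oligodendrocyte precursors), *Mog* (441 and 1362 cells, a myelin glycoprotein) and *C1qa* (352 and 582 cells, a microglial complement gene). In all, 1234 and 3600 cells fell in none of the 8 classes.

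The label of motor neurons was checked on genes other than the 10. In the *Prph* class, 4 of the 7 motor neuron markers that could be tested (*Tbx20*, *Nefh*, *Gfra1* and the gate gene *Prph*), out of 9 on the list, were at least 2-fold higher than in the other 3 neuron classes in both libraries. The other 2 markers were *Mnx1*, a homeodomain gene of motor neurons, at 0 UMIs in both libraries, and *Isl2* at 0 and 3.58 UMIs per 1000000 (CPM). The inhibitory markers *Gad1*, *Gad2* and *Slc6a5* and all 4 catecholaminergic markers were at least 2-fold lower than in the other neuron classes. Cells with *Slc32a1* were barred from the *Prph* class and made up 86 and 303 cells of the classes it was compared with. Lower inhibitory markers, *Slc32a1* among them, thus largely follow from the gates and are no check of the label. *Scn10a* and *Pou4f1*, markers of sensory ganglion neurons that also contain peripherin, were at 0. Astrocyte markers other than the gate gene summed to 528 and 717 CPM in the *Prph* class, microglial markers to 34.6 and 33.2 CPM, and oligodendrocyte markers (*Mbp* among them) to 10286 and 4925 CPM. The *Prph* cells thus carried motor neuron markers together with transcripts of myelin genes, and the part of the latter in the results was not tested.

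*Chat*, *Slc18a3*, *Slc5a7*, *Slc10a4*, *Isl1*, *Chodl* and *Chrm2* were highest in the *Prph* class of both libraries. A gene was called when its level, with 10 CPM added, was at least 2-fold higher or lower in both libraries, and genes with at least 20 UMIs were tested. By that rule 7 of the 10 genes were higher in the *Prph* class than in the other 3 neuron classes pooled, against 3.61% of the 11215 genes tested (405 genes), and 0 of the 10 were lower, against 2.83%. The median fold of the 10 was 7.69 and 8.59, against 1.06 and 1.01 over all genes tested. The 3 not called were the nicotinic subunits *Chrna3*, *Chrna4* and *Chrnb2*. In the plot of levels by class, the 6 genes of acetylcholine handling and motor identity peak together in the *Prph* column, while the receptors spread over several classes.

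**Figure D1:**
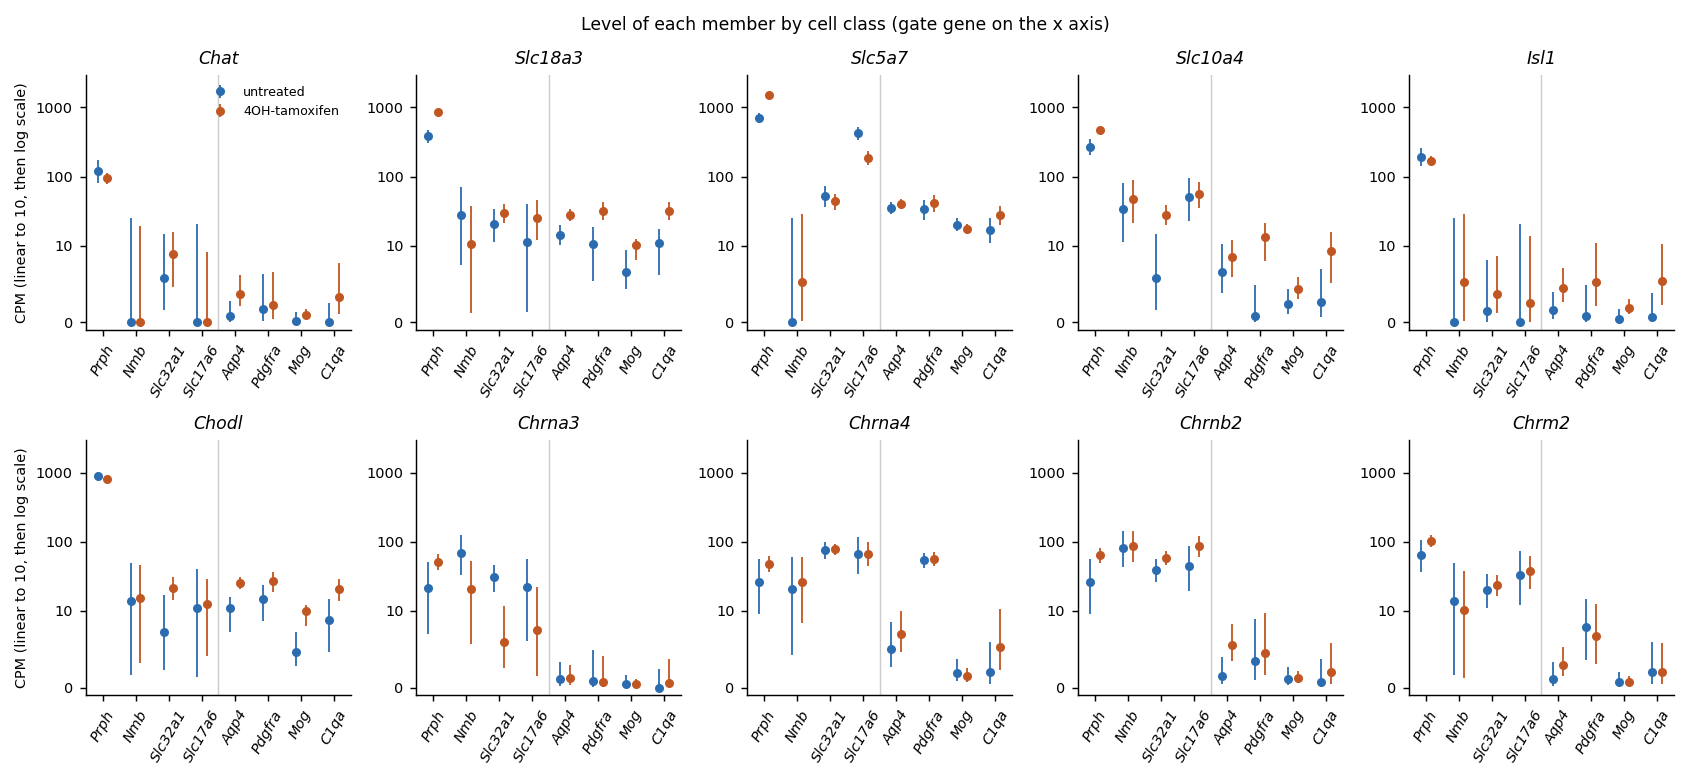
Level of each of the 10 genes (CPM, linear up to 10 and then on a log scale) in the 8 cell classes of the untreated and 4OH-tamoxifen libraries, with exact Poisson 95% intervals. *Chat* stands at 121 and 94.1 CPM in the *Prph* class and has 0 UMIs in the *Nmb* and *Slc17a6* classes, whereas *Chrna4* stands at similar levels in the *Slc32a1*, *Slc17a6* and *Pdgfra* classes.

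*Chat*, the enzyme that defines a cholinergic neuron, was found in the *Prph* class and at low levels elsewhere. Its level in that class was 121 CPM in the untreated library (95% interval 80.6 to 175, from 28 UMIs) and 94.1 CPM in the 4OH-tamoxifen library (76.95 to 114, from 105 UMIs). All such intervals are exact and cover counting error only, not the spread between animals. It had 0 UMIs in the *Nmb* and *Slc17a6* classes of both libraries, where 3 UMIs would be 20.6 and 16.7 CPM in the untreated and 15.6 and 7.50 CPM in the 4OH-tamoxifen library. In the *Slc32a1* class it stood at 5.82 and 8.88 CPM, from 4 of 86 and 9 of 303 cells. The *Prph* class exceeded the other 3 neuron classes by 30.7 times (10.7 to 121) and 15.2 times (8.36 to 30.4). *Chat* was detected in 38.3% of untreated *Prph* cells (18 of 47) and 42.6% of 4OH-tamoxifen ones (78 of 183), at median depths of 4061 and 4210 UMIs. The background share, in *C1qa* cells of median depth 3998 and 2321 UMIs, was 0% and 0.859%. With each cell thinned to 2000 UMIs, the shares in *Prph* cells were 27.3% and 19.3%.

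*Slc18a3* and *Slc5a7* gave more UMIs and more detected cells. *Slc18a3* stood at 385 CPM (310 to 474) in the untreated and 854.8 CPM (801 to 911) in the 4OH-tamoxifen *Prph* class, 19.5 times (11.9 to 33.5) and 31.9 times (24.2 to 43.1) the other neuron classes. In the untreated library the *Nmb* class held 27.5, the *Slc32a1* class 20.4 and the *Slc17a6* class 11.1 CPM, against 6.53 to 14.3 CPM in the 4 glial classes. In the 4OH-tamoxifen library the same neuron classes held 10.4, 29.6 and 25.0 CPM, within the glial range of 10.1 to 32.1 CPM. *Slc5a7* stood at 710 CPM (606 to 828) and 1516 CPM (1445 to 1590), 6.43 times (5.02 to 8.24) and 21.99 times (18.4 to 26.4) the other neuron classes. It was 1.68 times (1.27 to 2.24) and 8.19 times (6.49 to 10.5) the *Slc17a6* class alone. In the untreated library 52 of its 164 *Prph* class UMIs lay in 1 cell. *Slc18a3* was found in 66.0% and 72.7% of *Prph* cells (40.9% and 60.8% thinned) and *Slc5a7* in 76.6% and 77.6% (72.7% and 73.7% thinned). The *C1qa* background was 4.26% and 7.90% for *Slc18a3* and 6.53% and 6.70% for *Slc5a7*. At least 1 UMI of any of the 3 genes was present in 43 of 47 untreated *Prph* cells (91.5%, 79.6 to 97.6) and 166 of 183 4OH-tamoxifen ones (90.7%, 85.5 to 94.5), against 10.2% and 14.9% of *C1qa* cells, and all 3 were present in 12 and 55 *Prph* cells.

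*Slc10a4*, a vesicular orphan transporter found at cholinergic and monoaminergic terminals, was also highest in the *Prph* class of both libraries. It stood at 269 CPM (206 to 344) and 479 CPM (440 to 522) in the *Prph* class and was detected in 63.8% and 64.5% of its cells, against 1.14% and 2.41% of *C1qa* cells. In the *Slc17a6* class it stood at 50.02 and 55.01 CPM and in the *Nmb* class at 34.4 and 46.7 CPM, against 2.70 and 9.33 CPM in the *C1qa* class. Most of the *Slc10a4* UMIs of the *Slc17a6* class, 7 of 9 and 19 of 22, lay in its 5 and 13 cells with at least 2 UMIs of the catecholamine genes *Th* and *Dbh* in sum, at 75.2 and 181 CPM, against 23.0 and 10.2 CPM in its other cells. *Isl1* and *Chodl* stayed near the background outside the *Prph* class. *Isl1* stood at 195 CPM (142 to 261) and 170 CPM (147 to 196), and every other class held it at 5.33 CPM or less, with 0 UMIs in the untreated *Nmb* and *Slc17a6* classes. *Chodl*, which codes for the lectin-like membrane protein chondrolectin known from fast motor neurons, stood at 892 CPM (775 to 1023; 589 CPM without 1 cell that held 84 of 206 UMIs) and 817 CPM (765 to 872), which was 100 times (51.9 to 223) and 42.9 times (30.9 to 61.4) the other neuron classes, and 4.66 to 26.8 CPM in glia. *Isl1* was detected in 55.3% and 56.8% of *Prph* cells (31.8% and 29.2% thinned), and *Chodl* in 72.3% and 68.3% (59.1% and 54.4% thinned), against at most 5.33% of *C1qa* cells for either.

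The receptor genes were sparse in the *Prph* class and ordered differently. *Chrm2* stood at 65.0 CPM (36.4 to 107) and 103 CPM (85.1 to 124), the highest of any class, and was found in 21.3% and 34.4% of cells. The *Slc17a6* class followed at 33.3 and 37.5 CPM, a ratio of 1.95 (0.714 to 6.13) and 2.75 (1.60 to 5.07), so only the 4OH-tamoxifen library separated these neighbours beyond counting error. The *Slc32a1* class held 20.4 and 23.7 CPM and the *Nmb* class 13.7 and 10.4 CPM. After thinning, 4.55% and 14.0% of *Prph* cells had *Chrm2*, 2 of 44 and 24 of 171 cells, and with thinned counts *Chrm2* was no longer called higher in the *Prph* class. The call of *Chrm2* was also lost with a limit of 10% in place of 20% mitochondrial UMIs, and without the *Prph* cell of each library with the most UMIs of the 10 genes in sum, the untreated level then being 48.2 CPM.

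*Chrna3*, which forms the ganglionic type of nicotinic receptor with a beta subunit, stood higher in the *Nmb* class of one library and in the *Prph* class of the other, and neither was separated from the next class beyond counting error. In the untreated library the *Nmb* class held 68.7 CPM (33.0 to 126, 10 UMIs in 8 of 22 cells) and the *Slc32a1* class 30.5 CPM, a ratio of 2.25 (0.946 to 4.99), and it stood at 21.7 CPM (7.03 to 50.5) in the *Prph* class. In the 4OH-tamoxifen library the *Prph* class held 51.1 CPM (38.7 to 66.2) and the *Nmb* class 20.8 CPM (5.66 to 53.2), a ratio of 2.46 (0.910 to 9.34), and the *Slc32a1* class held 5.92 CPM. The ratio of *Prph* over the other 3 neuron classes was 0.627 (0.192 to 1.61) in one library and 6.62 (3.70 to 12.6) in the other, and these intervals do not overlap. In the *Slc32a1* class the level was 0.194 times (0.0743 to 0.456) as high in the 4OH-tamoxifen library. The 4OH-tamoxifen *Prph* level rested on cells rich in mitochondrial UMIs, since 50 of its 57 UMIs lay in the 61 cells with the highest share of these, at 87.0 CPM, against 10.9 and 14.0 CPM in the low and middle parts of 61 cells each. With a limit of 10% mitochondrial UMIs the *Prph* class stood at 20.3 and 13.4 CPM and the *Nmb* class at 51.04 and 44.8 CPM, so the *Nmb* class was then above the *Prph* class in both libraries. A neuron class held 3 to 57 UMIs of *Chrna3*, so its levels are known only roughly.

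*Chrna4* and *Chrnb2*, which together form the most common nicotinic receptor of the brain, were not enriched in the *Prph* class. *Chrna4* stood at 26.0 CPM (9.54 to 56.6) and 48.4 CPM (36.3 to 63.1) there, against 75.6 and 77.7 CPM in the *Slc32a1* class and 66.7 and 67.5 CPM in the *Slc17a6* class. The *Slc32a1* class exceeded the *Prph* class by 2.91 times (1.25 to 8.29) and 1.61 times (1.15 to 2.27), below the 2-fold limit of a call in the second library. *Chrnb2* stood at 26.0 and 63.6 CPM in the *Prph* class, 82.5 and 88.2 CPM in the *Nmb* class, 44.5 and 87.5 CPM in the *Slc17a6* class and 39.3 and 59.2 CPM in the *Slc32a1* class. The *Nmb* class exceeded the *Prph* class by 3.17 times (1.10 to 10.3) in the untreated library and by 1.39 times (0.766 to 2.38) in the other, where the order of the neuron classes was not resolved. Of the 6 untreated *Chrnb2* UMIs of the *Prph* class, 3 lay in its top cell, so the untreated level and ratio are known only roughly. Outside the *Prph* class, 3 of the 4 receptors were called higher in neurons than in glia. *Chrna3* was not called with 10 CPM added. It stood at 34.5 and 7.72 CPM in the other neuron classes pooled and at 1.16 and 1.25 CPM or less in each glial class. In the 3 other neuron classes pooled, *Slc5a7*, *Slc10a4*, *Chrna4*, *Chrnb2* and *Chrm2*, 5 of the 10 genes, were called higher than in the 4 glial classes, against 12.8% of 14456 genes tested.

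Among glia, *Chrna4* was the exception. It stood at 54.4 CPM (41.7 to 69.7) and 55.9 CPM (44.0 to 70.1) in the *Pdgfra* class, close to its level in inhibitory neurons, and at 1.47 to 6.99 CPM in the other glial classes. The *Pdgfra* class exceeded the *Aqp4* class by 10.8 times (5.88 to 21.4) and 8.003 times (5.12 to 12.8) and the *Mog* class by 29.2 times (13.9 to 70.5) and 38.03 times (20.9 to 74.7). It was detected in 16.8% and 11.3% of *Pdgfra* cells, against 0.852% and 1.37% of *C1qa* cells, at median depths of 3229 and 1892 UMIs. *Chrna4* was the only one of 9 tested members called higher in the *Pdgfra* class than in the other glial classes in both libraries, against 5.82% of 14049 genes. Neuron markers moved with it in part. *Snap25* (76.3 and 126 CPM in the *Pdgfra* class) and *Elavl2* (52.6 and 82.8 CPM) were called higher there as well, whereas *Syp* and *Tubb3* were not, and the 4 summed to 206 and 379 CPM. That sum was 2936 and 4822 CPM in the *Prph* class, and *Chrnb2*, the usual partner of *Chrna4*, stood at 3.51 and 4.47 CPM in *Pdgfra* cells. The part of neuronal RNA in the *Chrna4* level of these cells was not tested.

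*Slc5a7* appeared a second time, in excitatory neurons without *Chat*. In the *Slc17a6* class it stood at 422 CPM (333 to 529) in the untreated and 185 CPM (145 to 232) in the 4OH-tamoxifen library, in 10 of 17 cells (58.8%) and 23 of 74 cells (31.1%), or 31.2% and 23.2% after thinning. This was 8.07 times (5.36 to 12.4) and 4.24 times (2.97 to 6.07) its level in the *Slc32a1* class. *Slc5a7* was the only one of 8 tested members called higher in the *Slc17a6* than in the *Slc32a1* class, against 1.03% of 9923 genes. *Chat* had 0 UMIs in these cells, and *Slc18a3* had 2 and 10. The number of *Slc5a7* UMIs per *Slc18a3* UMI was 1.84 (1.42 to 2.41) and 1.77 (1.64 to 1.92) in the *Prph* class and 1.56 and 0.854 in the *C1qa* class, but 38 (10.2 to 319) and 7.40 (3.81 to 16.1) in the *Slc17a6* class. The 2 transporters thus stood in another proportion there than in the *Prph* and *C1qa* classes of the same library.

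The *Slc5a7* level of the *Slc17a6* class was higher in cells with catecholamine genes, though cells without them also had it. Cells with at least 2 UMIs of *Th* and *Dbh* in sum, the enzymes of catecholamine synthesis, numbered 5 of 17 and 13 of 74. *Slc5a7* was detected in 5 of these 5 cells and 10 of these 13, at 580 CPM (436 to 756, 54 UMIs) and 363 CPM (257 to 498, 38 UMIs). In the remaining 12 and 61 cells it was detected in 5 and 13, at 253 CPM (22 UMIs) and 122 CPM (36 UMIs). The ratio between the 2 sets was 2.29 (1.37 to 3.94) and 2.97 (1.84 to 4.83), and the cells with catecholamine genes were also deeper, with medians of 15280 and 8767 UMIs against 6714 and 4370. The 4 catecholaminergic markers summed to 806 and 400 CPM over the *Slc17a6* class and to 0 and 5.38 CPM over the *Prph* class. In the *Prph* cells, where *Slc5a7* was highest, *Th* and *Dbh* were thus at or near 0. The split by *Th* and *Dbh* was chosen after the values were seen.

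**Figure D2:**
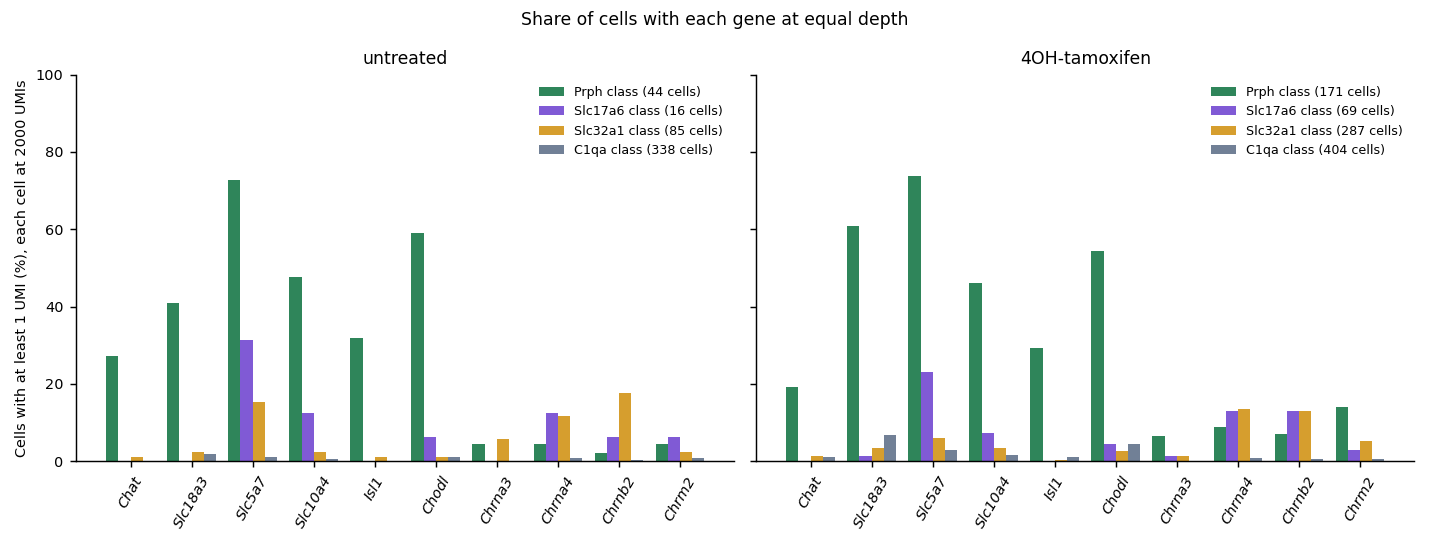
Percent of cells with at least 1 UMI of each gene after every cell was thinned to 2000 UMIs, as bars for the *Prph*, *Slc17a6* and *Slc32a1* classes and the *C1qa* class as the background, with the untreated library on the left and the 4OH-tamoxifen library on the right. *Slc5a7* was found in 72.7% and 73.7% of thinned *Prph* cells and in 31.2% and 23.2% of thinned *Slc17a6* cells, and no receptor exceeded 17.65% of cells in any class drawn.

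Genes around the 10 were taken from lists of the same pathway. Of 10 further genes of acetylcholine handling, 9 could be tested in the comparison of the *Prph* class with the other neuron classes and 1 was called higher, against 3.61% of all genes, *Prima1*, which anchors acetylcholinesterase to the membrane, at 21.7 and 13.4 CPM from 5 and 15 UMIs. *Prima1* was higher in the *Mog* class, at 44.7 and 79.8 CPM, and was called lower in the other neuron classes than in glia. The part of the myelin transcripts of the *Prph* class in its call was not tested. *Ache*, the esterase itself, was not called, at 446 and 456 CPM in the *Prph* class and 403 to 737 CPM in the other neuron classes. *Acly*, which supplies acetyl coenzyme A in the cytosol, stood at 676 and 1282 CPM in the *Prph* class and at 119 to 428 CPM in the others. It was not called because the untreated value missed the 2-fold limit. Of 16 nicotinic subunit genes, only *Chrna3*, *Chrna4* and *Chrnb2* reached 20 UMIs over the neuron classes, and 0 of these 3 were called. *Chrnb4*, a common partner of *Chrna3*, had 0 and 4 UMIs in the *Prph* class. Of 5 muscarinic receptor genes, 2 were tested and *Chrm2* alone was called. *Chrm3*, a receptor that couples to calcium release, was highest in the *Nmb* class at 27.5 and 20.8 CPM, from 4 UMIs in each library.

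Of 6 genes for helper proteins of nicotinic receptors, 5 were tested and 0 were called higher in the *Prph* class. The 1 called lower, against 2.83% of all genes tested, was *Ly6h*, which restrains nicotinic receptor currents. It stood at 372 and 420 CPM in the *Prph* class and at 1115 to 2082 CPM in the other neuron classes. *Lynx1*, a related inhibitor, was at 476 and 742 CPM in the *Prph* class and at 234 to 508 CPM in the others and was not called. The 6 genes of this list include the chaperone *Tmem35a*, named *Tmem35* in the gene table.

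Of 32 motor neuron genes, 27 were tested in the same comparison, 16 were called higher in the *Prph* class, against 3.61% of all genes, and 1 lower, against 2.83%. The 16 include *Prph*, which set the class. They also hold the transcription factors *Lhx4* (39.0 and 17.9 CPM), *Tbx20* (17.3 and 77.1 CPM) and *Tbx2* (39.0 and 28.7 CPM), the 3 neurofilament genes *Nefh*, *Nefm* and *Nefl*, *Mmp9* (30.3 and 37.6 CPM), known from fast motor neurons, and *Spp1* (204 and 408 CPM), known from alpha motor neurons. *Calcb*, a peptide gene of the calcitonin family, stood at 286 and 118 CPM, and the copine *Cpne4* at 130 and 113 CPM. The 1 called lower was *Gfra2*, the neurturin receptor.

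In most cells of the *Prph* class UMIs of several of the 6 genes of acetylcholine handling and motor identity were found, and in few of all 6. At least 3 of the 6 were found in 38 of 47 cells (80.9%) and 141 of 183 cells (77.0%), against 0.284% and 0.172% of *C1qa* cells, all 6 in 6 and 31 cells, and none in 2 and 5 cells. Any of the 4 receptor genes was found in 17 cells (36.2%) and 94 cells (51.4%), against 58.8% to 65.1% and 40.4% to 55.4% of cells in the other neuron classes and 1.70% and 2.58% of *C1qa* cells. *Chodl* was the most uneven of the 6, the 10% of cells with the most UMIs of it holding 63.1% and 55.7% of the total, with up to 84 and 55 UMIs in a cell. A single untreated cell, the one with the most UMIs of the 10 genes, had 23629 UMIs, 10.2% of the class, and held 84 of 206 *Chodl*, 52 of 164 *Slc5a7*, 18 of 89 *Slc18a3* and 15 of 62 *Slc10a4* UMIs. Some values that turn on it are given without it where they appear. Others include it, such as the untreated class levels of *Slc5a7* and of *Chrnb2*, of which it held 3 of 6 UMIs. The ratios of the untreated *Prph* class to other classes include it as well. The matching cell of the 4OH-tamoxifen library had 1.09% of its class. The middle of the cells for *Slc5a7* (per-cell quartiles) ran from 172 to 740 CPM in the untreated and from 275 to 1767 CPM in the 4OH-tamoxifen library, with medians of 406 and 819 CPM.

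*Slc5a7* was higher in the *Prph* cells with *Slc18a3* in both libraries, as were *Slc10a4* and *Chodl* except without the top cell of the untreated library. Cells with it were deeper than those without, with medians of 4547 against 3339 UMIs in the untreated and 7942 against 2700.5 UMIs in the 4OH-tamoxifen library. *Prph* cells with a UMI of *Slc18a3* held 865 CPM of *Slc5a7* against 279 CPM in those without, a ratio of 3.10 (1.87 to 5.46), and 1691 against 306 CPM in the 4OH-tamoxifen library, a ratio of 5.53 (4.09 to 7.67). For *Slc10a4* the ratio was 2.42 (1.14 to 5.88) and 3.36 (2.198 to 5.42), and for *Chodl* 2.28 (1.52 to 3.52) and 2.39 (1.80 to 3.22). Without the top cell the untreated ratios were 2.32 (1.38 to 4.15) for *Slc5a7*, 2.03 (0.934 to 5.02) for *Slc10a4* and 1.40 (0.907 to 2.21) for *Chodl*, so only *Slc5a7* stood above 1 in both libraries. For *Isl1* it was 0.984 (0.495 to 2.09) and 0.686 (0.469 to 1.03), an interval that overlaps those of the 3 genes in the untreated library and lies below them in the other. For *Chat* it was 1.07 (0.440 to 2.99) and 0.747 (0.441 to 1.34). Between *Prph* cells with and without *Slc18a3*, no difference in *Chat*, which shares its locus, was detectable at this depth. Split by *Chat* instead, *Slc18a3* was 2.67 times (1.67 to 4.36) as high in untreated cells with *Chat* and 1.21 times (1.06 to 1.38) in 4OH-tamoxifen ones. *Chodl* was 2.03 times (1.52 to 2.73) as high in untreated cells with *Chat*, but 0.935 times (0.635 to 1.36) without the top cell, and 0.723 times (0.633 to 0.826) in 4OH-tamoxifen ones. Cells with more UMIs are more often counted as having a gene, and these ratios are of UMIs per 1000000.

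Levels of the transporters in the *Prph* class differed between the libraries. *Slc18a3* was 2.22 times (1.78 to 2.79) and *Slc5a7* 2.13 times (1.82 to 2.52) as high in the 4OH-tamoxifen library. *Slc10a4* was 1.79 times (1.37 to 2.36) as high. *Chat* at 0.776 (0.507 to 1.22), *Isl1* at 0.873 (0.628 to 1.24) and *Chodl* at 0.916 (0.787 to 1.07) had intervals that include 1. *Chrnb2* stood at 2.45 times (1.07 to 6.89), and *Chrna3* at 2.36 (0.954 to 7.54), *Chrna4* at 1.86 (0.802 to 5.30) and *Chrm2* at 1.59 (0.923 to 2.93) had intervals that include 1. Without the top cell of each library *Slc5a7* was at 2.80 times (2.32 to 3.43), *Chodl* at 1.32 times (1.09 to 1.61) and *Chrnb2* at 4.44 times (1.46 to 22.1). *Slc10a4* was then at 2.08 times and also passed the 2-fold limit given next. By the 2-fold rule with 10 CPM added, *Slc18a3*, *Slc5a7* and *Chrnb2*, 3 of the 10 genes, were past the limit upward, against 5.68% of 8540 genes tested, and 0 of 10 downward, against 5.2%. The median fold of the 10 was 1.69, against 0.961 over all genes tested. Among the 24 tested motor neuron genes, 6 were past the limit upward (*Tbx20*, *Ret*, *Gfra1*, *Esrrg*, *Fgf1* and *Cd44*) and 2 downward (*Calca* and *Calcb*).

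This difference depended on which cells passed the filter for mitochondrial UMIs. Among all barcodes past the *Prph* gate, 8 untreated and 12 4OH-tamoxifen ones had been removed for over 20% mitochondrial UMIs. The 8 untreated ones were deep, with a median of 20225 UMIs, and held *Slc18a3* at 1097 CPM and *Slc5a7* at 2324 CPM. The 12 4OH-tamoxifen ones had a median of 7445 UMIs and held them at 908 and 1838 CPM. With no limit on mitochondrial UMIs (55 and 195 cells), the ratio between libraries was 1.28 (1.12 to 1.47) for *Slc18a3* and 1.14 (1.03 to 1.25) for *Slc5a7*, and with a limit of 10% (44 and 108 cells) it was 1.35 (0.983 to 1.88) and 1.20 (0.932 to 1.54). Under both, 0 of the 10 genes were past 2-fold with 10 CPM added, *Chrnb2* standing at a plain ratio of 2.63 (0.745 to 14.2) at the 10% limit and 1.43 (0.836 to 2.58) with no limit. Filtered-out barcodes held 42.1% of all *Slc18a3* UMIs of the untreated library, and 12.97% in the 4OH-tamoxifen library, while they held 8.18% and 14.2% of all UMIs.

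**Figure D3:**
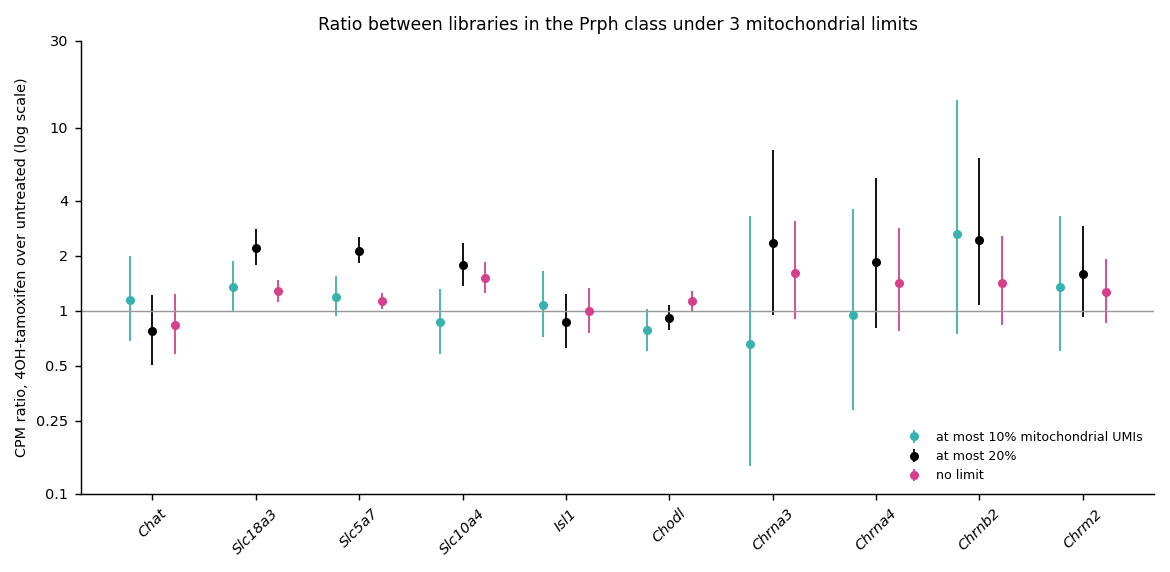
Ratio of the level in the 4OH-tamoxifen library to that in the untreated library in the *Prph* class (log scale) for the 10 genes, with limits of 10% and 20% on mitochondrial UMIs and with no limit, and exact 95% intervals. At the 20% limit *Slc18a3* and *Slc5a7* lie at 2.22 and 2.13, and at the other settings both lie between 1.14 and 1.35.

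Other measures moved with the same difference. *Malat1*, a nuclear noncoding RNA, stood at 52782 and 27496 CPM in the *Prph* class (ratio 0.521), the 3 oligodendrocyte markers other than *Mog* summed to 10286 and 4925 CPM, and the 4 neuron markers to 2936 and 4822 CPM. In glia, *Slc18a3* was 1.95 times (1.33 to 2.91) as high in the 4OH-tamoxifen *Aqp4* class, 3.05 times (1.58 to 6.35) in the *Pdgfra* class and 2.96 times (1.65 to 5.59) in the *C1qa* class, and at 1.54 times (0.999 to 2.45) in the *Mog* class. *Slc5a7* had intervals that include 1 in all 4 glial classes, at 0.869 to 1.62 times, and in the *Slc32a1* class, at 0.834 times (0.542 to 1.30), and went the other way in the *Slc17a6* class, at 0.438 times (0.314 to 0.611) the untreated level. *Slc18a3* in the *Nmb* class, at 0.378 times (0.0342 to 2.63), was not resolved. *Chodl* was at 0.916 times in the *Prph* class, or 1.32 times without the top cell of each library. In glia it was at 2.37 times (1.55 to 3.74) in the *Aqp4*, 2.14 times (1.30 to 3.67) in the *Mog* and 2.35 times (1.20 to 4.90) in the *C1qa* class. In the *Pdgfra* class it was at 1.80 times (0.985 to 3.42). *Prph* itself stood at 0.795 times in the *Prph* class and at 1.83 to 3.69 times in the 4 glial classes. The part of these measures in the difference was not tested.

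In the 4OH-tamoxifen library the level of the transporters was lower in the cells with more *Malat1*. In the untreated library the level in the cells with the least *Malat1* depended much on a single cell. The *Prph* class was divided into equal parts by each cell's *Malat1* level. In the 4OH-tamoxifen library *Slc18a3* stood at 1055, 807 and 342 CPM in the low, middle and high parts of 61 cells each, and *Slc5a7* at 1950, 1329 and 549 CPM. In the untreated library *Slc18a3* stood at 484, 454 and 219 CPM and *Slc5a7* at 943, 673 and 489 CPM. Without the top cell, which lies in the low part, that part stood at 376 CPM (238 to 564) for *Slc18a3* and 458 CPM (304 to 662) for *Slc5a7*. These intervals overlap those of the high part (127 to 350.0 and 346 to 671). The middle part, which does not hold that cell, had intervals of 308 to 644 and 493 to 898 CPM. *Slc18a3* was thus lowest in the high part with or without the top cell. The share of untreated cells with a UMI went the other way, at 43.75%, 81.25% and 73.3% for *Slc18a3* and 50%, 87.5% and 93.3% for *Slc5a7*, while in the 4OH-tamoxifen library it was 98.4%, 62.3% and 57.4% and 96.7%, 68.9% and 67.2%. In the untreated *Prph* class, the 10% of cells with the most UMIs held 57.3% of the UMIs of either transporter. *Chat* went the other way in the 4OH-tamoxifen library, at 59.8 (41.6 to 83.1), 108 and 171 (119 to 239) CPM and in 41.0%, 44.3% and 42.6% of cells, while in the untreated library it stood at 118, 146 and 103 CPM. *Isl1* stood at 157, 157 and 232 CPM in the 4OH-tamoxifen library. *Chodl* was also highest in the low part, at 1100, 470 and 564 CPM there and 1580, 468 and 514 CPM in the untreated library, where the low part fell to 817 CPM (607 to 1078) without the top cell and the shares of cells were 75%, 68.75% and 73.3%. The neurofilament gene *Nefm* stood at 5798, 4167 and 1555 CPM and, in the untreated library, at 3337 (2289 without the top cell), 2283 and 1401 CPM. The receptors stood in the same order in the 4OH-tamoxifen library, *Chrna3* at 70.0, 36.2 and 20.1 CPM, *Chrna4* at 63.2, 42.2 and 15.1 CPM, *Chrnb2* at 85.4, 48.2 and 25.2 CPM and *Chrm2* at 123, 87.4 and 70.5 CPM. The median share of mitochondrial UMIs in the same parts was 14.5%, 6.22% and 4.28%, and the median depth was 9715, 3424 and 2978 UMIs. In the untreated library the depth ran the other way, at 2927, 3977 and 4739 UMIs.

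**Figure D4:**
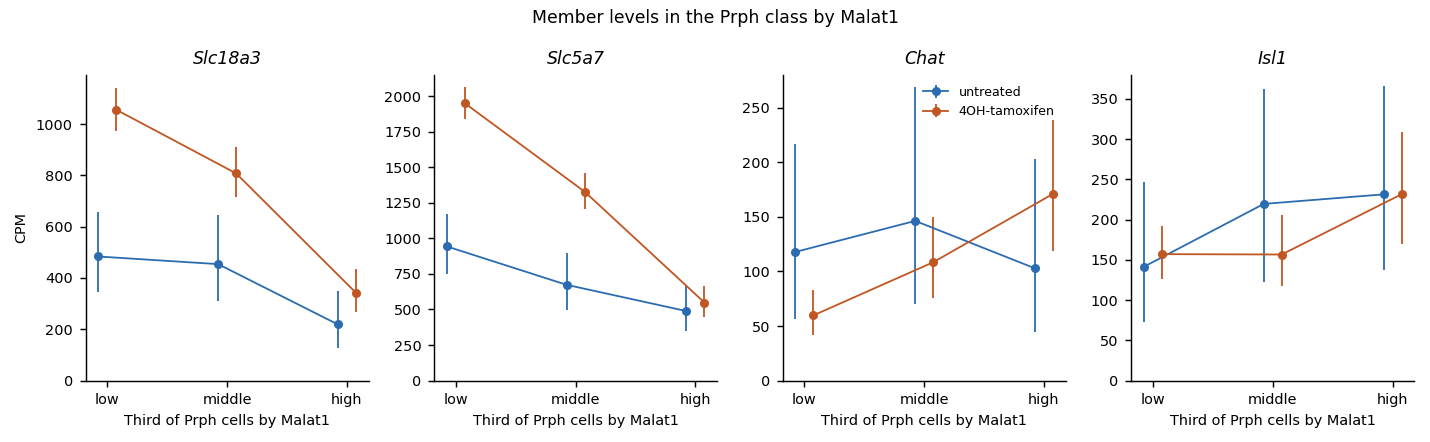
Level (CPM, linear axes from 0) of *Slc18a3*, *Slc5a7*, *Chat* and *Isl1* in *Prph* cells divided into low, middle and high parts by *Malat1* level, for each library, with exact Poisson 95% intervals. In the 4OH-tamoxifen library *Slc18a3* stands at 1055 CPM in the low and 342 CPM in the high part, and *Chat* at 59.8 and 171 CPM.

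When the cells of both libraries were placed in the same ranges of *Malat1*, the ratio between libraries for *Slc18a3* was 1.41 (1.01 to 2.03) in the low range (9 and 68 cells), 2.03 (1.41 to 2.996) in the middle range (20 and 56 cells) and 1.67 (0.981 to 2.999) in the high range (18 and 59 cells). For *Slc5a7* it was 1.27 (1.00 to 1.63), 2.42 (1.77 to 3.39) and 1.11 (0.779 to 1.61). For *Slc18a3* the intervals of the 3 ranges overlap and give no order. Without the top cell of each library its low range stood at 1.44 (0.902 to 2.44), an interval that includes 1. For *Slc5a7* the low range then rose to 2.201 (1.45 to 3.52). Only the high range of *Slc5a7*, at 1.11, then lay below the middle one beyond counting error. These ranges were added after the values were seen.

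Across the 8 classes of the 2 libraries (16 points, with 10 CPM added and on a log2 scale), *Isl1*, *Chodl*, *Chat* and *Slc18a3* were the most alike of the 10 genes. *Isl1* and *Chodl* had a Pearson r of 0.991, *Chat* and *Isl1* 0.976, and *Chat* and *Slc18a3* 0.952, while *Chat* and *Slc5a7* had 0.752. In the *Slc17a6* class *Slc5a7* stood at 422 and 185 CPM and *Chat* at 0, and the part of that class in the lower r was not tested. Receptors did not form a set of their own. *Chrna3* and *Chrnb2* had 0.813 and *Chrna4* and *Chrnb2* 0.672, but *Chrna3* and *Chrna4* had 0.467, below the 0.689 of *Chrna3* and *Slc10a4*. *Chrm2* had 0.899 with *Slc10a4*, 0.825 with *Slc5a7* and 0.763 with *Slc18a3*, above its 0.718, 0.697 and 0.743 with *Chrna3*, *Chrna4* and *Chrnb2*. Of 10423 genes compared, the 10 and the gate genes left out, those closest to *Chat* were *Plekhd1* (0.971), *Calcb* (0.964), *Htr3a* (0.959), *Prss12* (0.949) and *Rspo2* (0.946). Closest to *Chrm2* were *Galnt9* (0.969), *Cntn2* (0.960) and *Armc9* (0.953), and to *Chrna3* *Zfhx4* (0.938), *Ret* (0.921) and *Myo9a* (0.915). Closest to *Chrna4* were *Ttc9b* (0.962), *Mgat5b* (0.956) and *Syt16* (0.953), and to *Chrnb2* *Scamp1* (0.987), *Arf3* (0.980) and *Syp* (0.980). The points share libraries, depths and free RNA, so these values only describe the likeness of profiles.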

How the data were processed

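The data are 2 single-cell libraries from the ventral parafacial region, 1 untreated and 1 4OH-tamoxifen. Per the labels and the study's methods, the authors converted reads with bcl2fastq 2.18.0.12, aligned them to mm10 (GRCm38) and counted with Cell Ranger 2.2.0 (10x chemistry v2), and the deposited values are raw UMI counts per gene and cell barcode before removal of doublets and low-quality cells. UMIs were not divided by gene length, and levels are compared within a gene only.

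Scrublet (scanpy 1.11.5) was run on each library and marked 6 (0.159%) and 544 (5.31%) barcodes, which were removed with cells under 800 genes, over 50 hemoglobin UMIs or over 20% mitochondrial UMIs. A neuron had at least 3 UMIs over at least 2 of *Snap25*, *Syp*, *Tubb3* and *Elavl2* and under 2 UMIs of each glial gate gene. Gates were at least 5 UMIs of *Prph*, 2 of *Nmb*, 1 of *Slc32a1* or *Slc17a6*, or 2 of a glial gene. Cells past a second gate were left out, except that *Slc17a6* UMIs did not bar a cell from the *Prph* or *Nmb* class. The *Slc17a6* class therefore holds only cells with *Slc17a6* that are outside those 2 classes. The *Slc17a6* class was also split at 2 UMIs of *Th* and *Dbh* in sum.

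UMIs were summed per class and given per 1000000 (CPM) with exact Poisson intervals, ratios with exact conditional intervals and shares with Clopper-Pearson intervals, all 95%. Calls used 10 CPM added, 2-fold in both libraries and at least 20 UMIs. The intervals and calls were first tested on simulated counts that carried counting error only, without spread between cells. Of the intervals, 97% held the true fold. Genes set 4-fold and 8-fold higher were called in 84% and 98% of cases, and those set 4-fold and 8-fold lower in 58% and 66%. Genes without a change were called in 0%. Python 3.11.15, numpy 2.4.6, scipy 1.17.1 and pandas 2.3.3 were used.

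The 10 genes, the gene lists and the tests were chosen with earlier results of these data known. Named genes are the 10, genes of the lists (the highest and lowest in the *Prph* class and those called) and the nearest profiles. Values of 2 genes of the lists are not reported here. Alternatives changed the filters, gates, depth, scaling and call rule, and 4 were added after the data were seen (no mitochondrial limit, CPM without *Malat1* and mitochondrial genes, and shared barcodes or the top *Prph* cell of each library left out). No p-value is given, since each condition has a single library.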

Additional observations from a re-analysis of the deposited data

Results flagged for a closer look

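*Slc5a7* differed between the libraries in opposite directions in 2 neuron classes, at 2.13 times the untreated level in the *Prph* class and 0.438 times in the *Slc17a6* class. In the *Prph* class it stood at 1.20 with a limit of 10% mitochondrial UMIs and at 1.14 with no limit. Of its 76 untreated UMIs in the *Slc17a6* class, 54 lay in the 5 of 17 cells with *Th* and *Dbh*, which were 13 of 74 cells in the 4OH-tamoxifen library. Each condition has 1 library, and the difference between these ratios was not tested.

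Barcodes past the *Prph* gate but over the limit on mitochondrial UMIs held much *Slc18a3* and *Slc5a7*. They entered a comparison between classes only in the alternative with no such limit. *Slc18a3* stood at 1097 CPM in the 8 untreated and 908 CPM in the 12 4OH-tamoxifen barcodes, and *Slc5a7* at 2324 and 1838 CPM, against 385 and 854.8 CPM and 710 and 1516 CPM in the cells kept.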

How the results depend on the processing

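The count of the 10 genes called higher in the *Prph* class was 7 or 6 under every alternative run, *Chrm2* being lost with at most 10% mitochondrial UMIs, with thinning, with 50 CPM added, at 4-fold and without the top *Prph* cell of each library (the one with the most UMIs of the 10), and 0 were lower except for *Chrna4* (1) at the 10% limit. The summed level of the 10 genes in the *Prph* class, 2711 and 4198 CPM, was 1864 and 1986 at the 10% limit, 3671 and 4384 with no limit, 3205 and 4538 with the *Prph* gate at 10 UMIs, 2452 and 3962 with it at 2 UMIs, 3830 (untreated) with glial gates at 1 UMI, 2250.0 and 3333 after thinning, 2180.4 and 3223 as the mean of per-cell CPM, 3087 and 4901 without *Malat1* and mitochondrial genes, and 2123 (untreated) without the top cell. The share of *Prph* cells with *Chat*, *Slc18a3* or *Slc5a7* became 84.3% (4OH-tamoxifen) at the 10% limit, 100% (untreated) with the *Prph* gate at 10 UMIs or glial gates at 1 UMI, and 61.7% and 66.7% when 2 UMIs were asked for. Between libraries, the median ratio of the 10 fell from 1.82 to 1.12 at the 10% limit, where *Slc10a4* turned to 0.874 and *Chrna3*, at 2.36 in the report, to 0.659, and 0 genes passed 2-fold there and with no limit, against 3 in the report and 1 with the *Prph* gate at 10 UMIs (*Slc18a3*) or per-cell means (*Slc5a7*). Neither *Slc18a3* nor *Slc5a7* passed after thinning (*Chrnb2* and *Chrm2* did) or with glial gates at 1 UMI (*Chrna3* and *Chrna4* did). Added to the 3 of the report, *Chrna3* passed with the *Prph* gate at 2 UMIs, with 1 CPM added and without *Malat1* and mitochondrial genes. *Slc10a4* was added without the top cell of each library, and *Chrnb2* was lost with 50 CPM added. The cause was not tested. Of the single values, 307 of 364 levels, 125 of 140 ratios and 214 of 272 shares stayed within their intervals. No paired analysis was possible because each condition has 1 library, and for the same reason no replicate could be left out. Depth limits the receptors most, *Chrna3*, *Chrna4* and *Chrnb2* resting on 5 or 6 UMIs in the untreated *Prph* class.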

Other observations

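*Prph* transcripts with acetylcholine genes were also found outside the classes. Cells past the *Prph* gate that failed the neuron rule or carried a glial marker numbered 25 and 53, and held *Slc18a3* at 252 and 555 CPM and *Slc5a7* at 383 and 1102 CPM. Cells of no class held 21.4% of untreated and 29.1% of 4OH-tamoxifen *Chat* UMIs, against 40.0% and 41.8% in the *Prph* class, which itself had 1.25% and 3.22% of all UMIs. Of all *Chrna4* UMIs, the *Prph* class held 2.46% and 9.36%, the *Slc32a1* class 21.3% and 18.2% and the *Pdgfra* class 25.4% and 12.998%.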
